A study of Mus musculus with 12 samples.

Results

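Metallothioneins and the proteins that move zinc across membranes were followed in mouse alveolar epithelial type 2 cells (AEC2), the surfactant-producing cells of the lung, through 8 genes: the metallothioneins Mt1, Mt2 and Mt3, the metal sensor Mtf1, the zinc exporters Slc30a1 and Slc30a5 and the zinc importers Slc39a8 and Slc39a1. These are 8 of the 16080 genes measured, and all 8 had a value in every library. They were selected with their measured levels across the 3 genotypes in view, so their differences between genotypes are given below as a description, with no test.

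The mice carried 1 of 3 genotypes at Sftpc, which encodes surfactant protein C (SP-C), a protein whose precursor holds a folding segment called BRICHOS. The groups were C185G, the mutant, C185Gneo, which the series calls a hypomorphic control, and SP-C WT, with 4 libraries of RNA from isolated cells each. In all 3 groups the animals were female Bl6 mice at postnatal day 56 that had received tamoxifen intraperitoneally at 200 mg per kg on 2 days, with AEC2 isolated on day 7, so the WT animals had tamoxifen too. Groups follow the genotype field of the labels. Sample titles use the names differently: a library of genotype C185Gneo is titled C185G, and a library of genotype C185G bears another code. Going by titles would thus assign C185Gneo libraries to C185G. The labels name neither the recombinase nor the number of mutant alleles. They do not state whether each library is a different mouse, and the p-values therefore cover the variation among these libraries alone, which may be technical. The design asks how transcription in AEC2 differs after mutant SP-C is switched on.

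Metallothioneins are small, cysteine-rich proteins that bind zinc and copper and buffer their free levels. Free zinc in a cell is set by importers of the ZIP family (gene names Slc39a), which bring zinc into the cytosol, and exporters of the ZnT family (Slc30a), which move it out of the cell or into organelles. The zinc finger protein encoded by Mtf1 senses zinc and switches on Mt1, Mt2 and Slc30a1 through short promoter motifs called metal response elements. Mt1 and Mt2 are made in most tissues and also respond to glucocorticoids and oxidants, whereas Mt3 is best known from the brain.

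The 3 metallothionein genes lie side by side on mouse chromosome 8 (GRCm38), all on the plus strand. Mt3 (ENSMUSG00000031760) spans chr8:94152607-94154146, Mt2 (ENSMUSG00000031762) chr8:94172664-94173568 and Mt1 (ENSMUSG00000031765) chr8:94179082-94180327, and each has 3 exons. The coding sequences are shown because they tell how far reads of the 3 genes can be told apart, and because the cysteine codons (TGC and TGT, in capitals) are the family's defining feature. They run 5′ to 3′ from the start to the stop codon.
Mt3: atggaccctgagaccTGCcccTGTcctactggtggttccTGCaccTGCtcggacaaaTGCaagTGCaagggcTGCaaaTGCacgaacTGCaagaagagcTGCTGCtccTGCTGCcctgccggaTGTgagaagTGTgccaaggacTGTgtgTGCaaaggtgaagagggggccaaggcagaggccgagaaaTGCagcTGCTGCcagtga
Mt2: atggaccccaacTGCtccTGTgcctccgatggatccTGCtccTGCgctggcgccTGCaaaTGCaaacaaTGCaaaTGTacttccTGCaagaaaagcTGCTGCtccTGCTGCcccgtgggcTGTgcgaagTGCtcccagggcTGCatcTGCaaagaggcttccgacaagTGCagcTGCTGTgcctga
Mt1: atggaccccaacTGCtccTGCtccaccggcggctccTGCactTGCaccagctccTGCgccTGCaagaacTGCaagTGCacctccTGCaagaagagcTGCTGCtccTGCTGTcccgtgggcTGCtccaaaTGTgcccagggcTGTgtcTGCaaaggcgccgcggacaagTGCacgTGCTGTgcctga
Each of the 3 has 20 cysteine codons, out of 68 codons before the stop in Mt3 and 61 in Mt2 and in Mt1. Mt1 and Mt2 were identical at 79.6% of aligned coding positions. Mt3 was identical to Mt1 at 66.2% and to Mt2 at 67.6%, counting 21 positions at which Mt3 has a base and the others a gap. The longest stretch shared by 2 transcripts was 27 bases between Mt3 and Mt1, and 20 bases for each of the other pairs. Mt2 overlaps the exons of an annotated antisense gene, Gm45774, which had no value in the tables used here, and since the strand setting of the counting is not given, its reads cannot be told from those of Mt2.

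The promoters of the 3 metallothioneins are printed because Mt1 and Mt2 moved together while Mt3 followed another scale. Each window holds the 250 bases before and the 50 bases from the RefSeq start (GRCm38.p6, plus strand), and capitals mark the metal response element core, TGCACNC or TGCGCNC, on either strand.
Mt3, chr8:94152357-94152656: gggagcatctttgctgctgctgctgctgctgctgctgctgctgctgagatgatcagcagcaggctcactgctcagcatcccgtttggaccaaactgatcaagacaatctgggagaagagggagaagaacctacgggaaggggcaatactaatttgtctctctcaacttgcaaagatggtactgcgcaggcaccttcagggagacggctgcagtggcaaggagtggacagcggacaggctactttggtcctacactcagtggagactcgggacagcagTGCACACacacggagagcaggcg
Mt2, chr8:94172368-94172667: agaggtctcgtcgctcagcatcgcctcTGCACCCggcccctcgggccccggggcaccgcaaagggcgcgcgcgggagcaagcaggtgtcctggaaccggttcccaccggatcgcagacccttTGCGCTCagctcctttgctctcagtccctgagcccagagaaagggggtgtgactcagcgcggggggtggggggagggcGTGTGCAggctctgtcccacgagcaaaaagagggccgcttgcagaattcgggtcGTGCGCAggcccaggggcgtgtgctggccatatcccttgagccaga
Mt1, chr8:94178839-94179138: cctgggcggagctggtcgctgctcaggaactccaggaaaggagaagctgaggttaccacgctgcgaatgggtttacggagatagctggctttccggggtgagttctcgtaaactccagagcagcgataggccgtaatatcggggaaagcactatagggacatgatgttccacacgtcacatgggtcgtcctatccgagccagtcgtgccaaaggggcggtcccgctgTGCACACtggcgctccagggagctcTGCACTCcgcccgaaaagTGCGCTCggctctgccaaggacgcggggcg
The core was found 1 time in the Mt3 window, 4 times in that of Mt2 and 3 times in that of Mt1. Not all of these lie before the start. The Mt3 match began 27 bases after the start. Mt2 matches began 223, 128 and 50 bases before the start and 4 bases after it. Mt1 matches began 23 bases before the start and 2 and 20 bases after it. Over all 32851 RefSeq promoter windows of 300 bases, 25.7% held at least 1 match, 7.11% at least 2 and 0.518% at least 4. Of the other genes described here, Slc30a1 had 2 matches, Slc30a5 had 1, and Mtf1 and Slc39a1 had 0. Slc39a8 has 2 annotated starts, with 0 matches in the window of the first and 1 in that of the second. A core of the antioxidant response element, TGACNNNGC on either strand, was found 1 time in the windows of Mt2, Slc30a1, Slc30a5, Slc39a1 and the first window of Slc39a8, and 12.4% of all windows held it. These matches describe the letters of each window only.

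Libraries held 15659512 to 23444287 counts over the measured genes. Levels below are normalized CPM: whole read counts recovered from the deposited log2 values, kept on the authors' scaling between libraries and expressed as counts per depth (CPM). Sftpc, the edited gene, averaged 2833 ± 256 CPM in C185G, 895 ± 143 CPM in C185Gneo and 7467 ± 194 CPM in WT (SD, n = 4 each), so its lowest level was in the group called hypomorphic. The summed level of 10 AEC2 markers, all measured, was 14113 to 16896 CPM in C185G, 30191 to 34242 CPM in C185Gneo and 33548 to 39362 CPM in WT. These markers include Sftpc itself. Without it, the other 9 summed to 11054 to 14048 CPM in C185G, 29419 to 33163 CPM in C185Gneo and 26337 to 31908 CPM in WT, so that C185G lay below both control groups and the control groups overlapped. The part of this difference in the results below was not tested. In bulk RNA, fewer cells of a type and less RNA per cell cannot be told apart. All 8 mesenchymal markers were measured. Their sum was 556 to 758 CPM in C185G, 153 to 464 CPM in C185Gneo and 401 to 615 CPM in WT. The library C185Gneo 1 was the lowest, with 153 CPM. In this sum every C185G library was above every C185Gneo library, and C185G overlapped WT. By limma, 7 of the 8 were called higher and 0 lower against C185Gneo, where 29.2% of all genes were called higher. Against WT 1 was called higher and 0 lower, where 27.3% of all genes were called higher. Endothelial markers, 7 of 8 measured, summed to 113 to 135 CPM in C185G, 138 to 224 CPM in C185Gneo and 155 to 242 CPM in WT. The 8 club and ciliated cell markers summed to 4884 to 5623 CPM in C185G, 5861 to 7373 CPM in C185Gneo and 5683 to 7781 CPM in WT. Both sums were lower in every C185G library than in every control library. Against WT, limma called 5 of the 7 endothelial markers lower and 0 higher, where 27.8% of all genes were called lower. Of the 8 club and ciliated markers it called 3 lower, 0 higher and 5 not, and 2 had a positive log2 difference. The club and ciliated sum therefore does not stand for each marker in it. The sums of 8 AEC1 markers and of the 4 measured of 8 macrophage markers overlapped between C185G and both control groups, and 0 of 6 erythrocyte markers had a value. Single markers within these sums did differ. In each C185G comparison, limma called 2 AEC1 markers higher and 2 lower, and 2 macrophage markers higher and 0 lower. The shares of all genes called higher and lower were 27.3% and 27.8% against WT, and 29.2% and 28.7% against C185Gneo. The part of these other cell types in the results below was likewise not tested.

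Mt3 stood apart from the other metallothioneins: it was near the limit of detection in both control groups and clearly present in every C185G library. Mt3, the form best known from the brain, had 22.2, 30.5, 24.7 and 26.4 CPM in the 4 C185G libraries, against 0.342, 0.111, 0.178 and 0.174 CPM in C185Gneo and 0.515, 0.0566, 0.0557 and 0.123 CPM in WT. In counts these were 431, 656, 454 and 428 reads in C185G, 8, 2, 3 and 3 reads in C185Gneo and 9, 1, 1 and 2 reads in WT. The C185G libraries did not overlap either control group, and the control groups overlapped each other. Pooled over libraries, 1969 reads in C185G stood against 16 in C185Gneo and 13 in WT. The level was 139 times that of WT (95% interval 81.2 to 262) and 123 times that of C185Gneo (75.5 to 216), while C185Gneo was 1.13 times WT (0.510 to 2.56). These intervals cover counting error only.

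A single control library, WT 1, supplied 9 of the 13 WT reads of Mt3. Without it, the level in C185G was 338 times that of WT (132 to 1242), and C185Gneo was 2.75 times WT (0.887 to 11.3). The fitted log2 difference of Mt3, 7.37 (SE 0.50) for C185G minus WT and 6.91 (SE 0.50) for C185G minus C185Gneo, depends on the 0.5 added to each count. It ranked 1 of 16080 genes in both comparisons, which share the same C185G libraries. The rank is a description only, because Mt3 was chosen on these values and had 1 to 9 reads per control library. The lowest fitted value over the alternatives run was 6.65 for C185G minus WT, with 2 added in place of 0.5. Of 10 neuron and neuroendocrine markers 5 were measured; those with no value included Chga, Syt1, Snap25 and Rbfox3. The sum of the 5 was 12.4 to 18.2 CPM in C185G, 16.1 to 18.5 CPM in C185Gneo and 13.8 to 16.9 CPM in WT, so this sum did not separate C185G from either control group. Within it, Calca, the calcitonin gene-related peptide gene, averaged 9.01 ± 0.933 CPM in C185G, 3.44 ± 0.544 CPM in C185Gneo and 2.65 ± 0.184 CPM in WT (SD, n = 4 each), whereas Tubb3, a neuronal tubulin, averaged 2.26 ± 1.07 CPM in C185G, 8.26 ± 0.856 CPM in C185Gneo and 7.35 ± 1.34 CPM in WT.

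Mt1 and Mt2 were the abundant metallothioneins in all 3 groups and were moderately higher in C185G. Mt1, a general zinc and copper buffer, had 267.2, 300.1, 315.4 and 354.0 CPM in C185G, 168.7, 227.3, 212.6 and 210.9 CPM in C185Gneo and 232.2, 232.8, 222.2 and 234.9 CPM in WT. Every C185G library was above every control library, and the control groups overlapped. Its log2 difference was 0.42 (SE 0.092) for C185G minus WT, 0.60 (SE 0.092) for C185G minus C185Gneo and -0.18 (SE 0.092) for C185Gneo minus WT. Mt2, its close paralog, had 214.2, 251.9, 239.3 and 287.8 CPM in C185G, 130.3, 190.4, 163.0 and 166.7 CPM in C185Gneo and 199.4, 185.9, 181.5 and 186.4 CPM in WT. The order of the groups was that of Mt1, again with all C185G libraries on top. Its log2 difference was 0.39 (SE 0.11) for C185G minus WT, 0.62 (SE 0.11) for C185G minus C185Gneo and -0.22 (SE 0.11) for C185Gneo minus WT.

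The library C185Gneo 1, lowest in mesenchymal markers, was also the lowest in Mt1 and Mt2. Without it the log2 difference of C185G minus C185Gneo was 0.50 for Mt1 and 0.51 for Mt2, and every remaining C185Gneo library was still below every C185G library. At the other end, leaving out C185G 4, the highest library, left 0.35 for Mt1 and 0.32 for Mt2 in C185G minus WT.

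**Figure D1:**
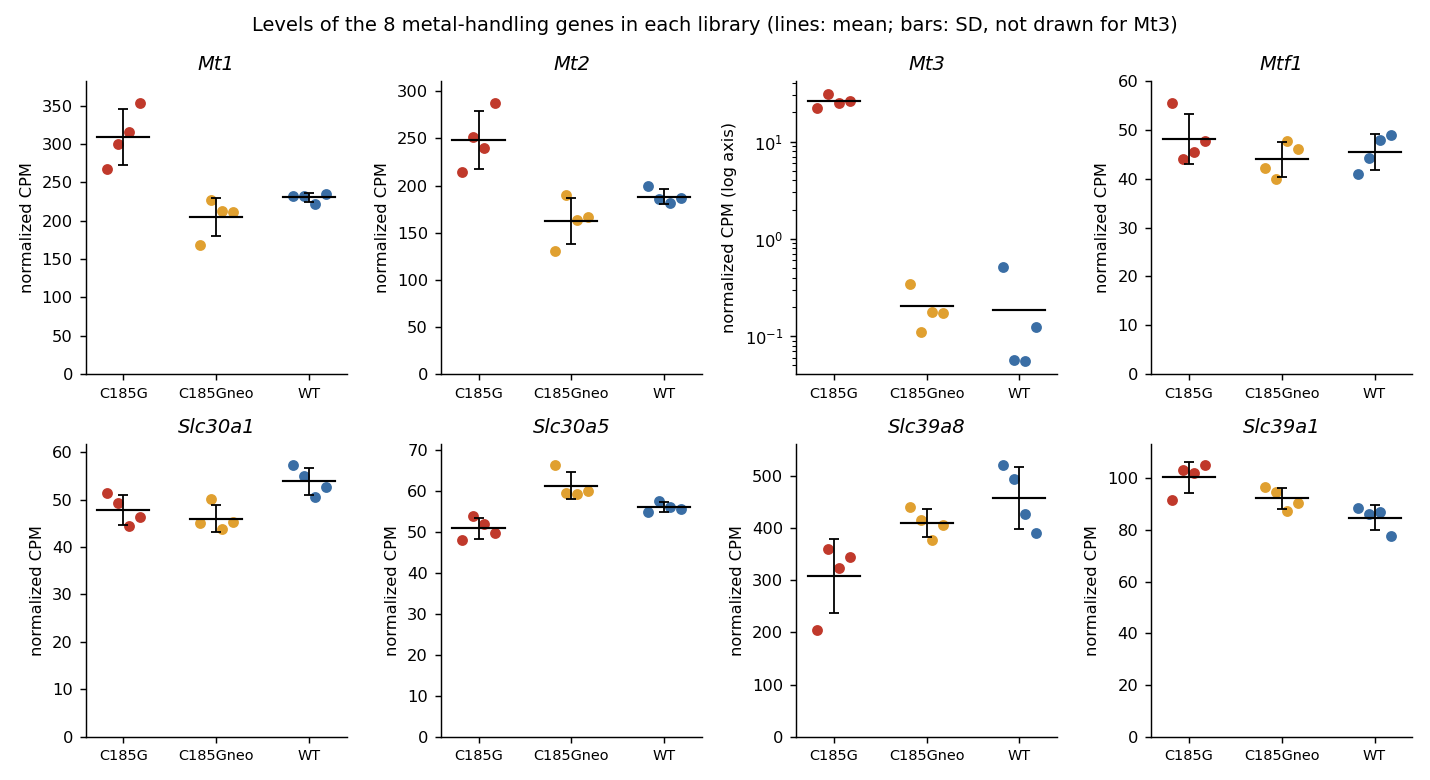
Level of each of the 8 genes in normalized CPM (vertical axes; a log axis for Mt3), with 1 point per library and the groups C185G, C185Gneo and WT from left to right. Lines are means and bars SD (n = 4; none drawn for Mt3); Mt3 lies between 22.2 and 30.5 CPM in C185G and at or under 0.515 CPM in both control groups.

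The summed metallothionein level was 583 ± 67.2 CPM in C185G, 368 ± 49.5 CPM in C185Gneo and 419 ± 11.7 CPM in WT (SD, n = 4 each). Mt3 made up 4.47 ± 0.552% of metallothionein reads in C185G, 0.0586 ± 0.0383% in C185Gneo and 0.0439 ± 0.0507% in WT. Per kilobase of transcript, the order within C185G was Mt1 with 563 ± 65.6, Mt2 with 486 ± 60.0 and Mt3 with 48.4 ± 6.54 CPM per kilobase. Mt3 thus differed by the greater factor but stayed the least abundant of the 3.

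Mt1 and Mt2 kept a near constant ratio to each other. The level of Mt1 over that of Mt2 was 1.25 ± 0.0529 in C185G, 1.26 ± 0.0499 in C185Gneo and 1.23 ± 0.0432 in WT (SD, n = 4 each). Likeness of pattern was measured as the root mean square difference between centred log2 levels over the 12 libraries, where 0 is an identical pattern. Mt1 and Mt2 were 0.0526 apart, closer to each other than either was to any of 11187 other protein-coding genes with a mean of at least 5 CPM. The genes nearest to Mt1 after that were Zscan25 at 0.0760, Exoc1 at 0.0823, Fth1 at 0.0876, Mmp23 at 0.0878 and Tmem65 at 0.0916. Those nearest to Mt2 were Zscan25 at 0.101, Mmp23 at 0.104, Exoc1 at 0.109, Cnot11 at 0.110 and Fntb at 0.113. Fth1 encodes the heavy chain of ferritin, the iron store, and Exoc1 a subunit of the exocyst, which tethers secretory vesicles. These genes were picked for their likeness, which is a description of these 12 libraries.

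**Figure D2:**
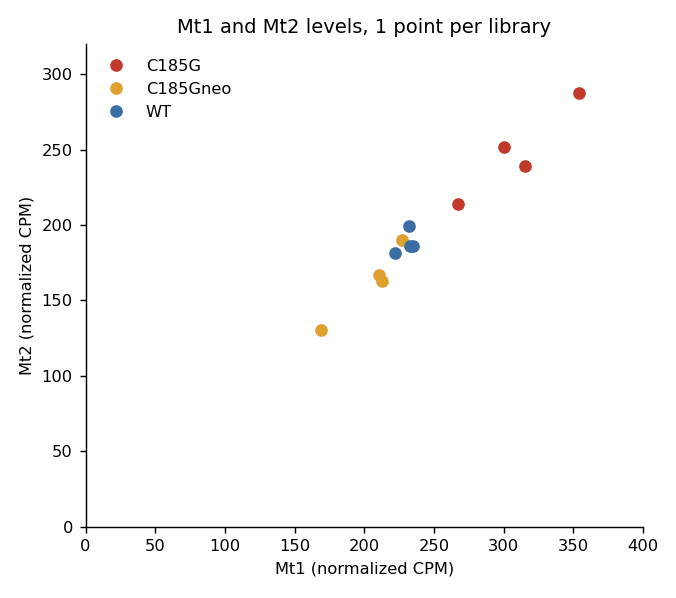
Level of Mt2 (vertical axis) against Mt1 (horizontal axis) in normalized CPM, 1 point per library, coloured by genotype. The 4 C185G points lie at or above 214 CPM of Mt2 and 267 CPM of Mt1, to the upper right of all 8 control libraries, on much the same line through the origin (ratio 1.23 to 1.26 by group).

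Mt3 had no such close partner, and was 3.22 from both Mt1 and Mt2 on this measure, which grows with the size of a difference. The root mean square of its own centred log2 levels was 3.44, against 0.280 for Mt1 and 0.294 for Mt2. The distance thus mostly gives the size of the Mt3 difference. For Mt1, Mt2 and Mt3 alike, every C185G library was above every control library. The genes nearest to Mt3 were Sprr1a at 1.55, Uchl1 at 1.59, Prg4 at 1.62, Gsta1 at 1.71 and Ndnf at 1.73. All 5 were, like Mt3, far higher in C185G than in both control groups, which follows from their being picked for likeness to Mt3. Sprr1a, a cornified envelope precursor of squamous epithelia, averaged 686 ± 72.8 CPM in C185G, 24.7 ± 4.26 CPM in C185Gneo and 48.3 ± 15.4 CPM in WT. Uchl1, a ubiquitin hydrolase abundant in neurons and neuroendocrine cells, averaged 104 ± 7.26 CPM in C185G, 5.66 ± 0.304 CPM in C185Gneo and 5.84 ± 0.445 CPM in WT (SD, n = 4 each). The remaining 3 were Prg4, which encodes the lubricant lubricin, Gsta1, a glutathione transferase, and Ndnf, a secreted glycoprotein.

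The genes reported around the cluster did not share the pattern of Mt3. Within 200 kb of the cluster, 8 other measured genes are reported, and Mt4, a further metallothionein gene, had no value. Gnao1 starts 343 kb before Mt3, and only its end lies in this window. The 8 were named after their values were seen, so the shares of all genes beside them are a description only. By limma's adjusted p over all genes, 3 of the 8 were higher and 2 lower in C185G than in WT, against 27.3% and 27.8% of all genes called higher and lower. Nup93, a nuclear pore scaffold gene on the Mt1 side, rose by 1.23 (SE 0.12) on the log2 scale, with an adjusted p of 1.4e-06. Bbs2, a component of a ciliary transport complex and the reported gene nearest to Mt3 on the other side, fell by 0.34 (SE 0.097, adjusted p = 0.0082). The other calls were Slc12a3 and the antisense gene Gm15890, both higher, and Gnao1, lower, each averaging under 2.2 CPM in both groups. Against C185Gneo 1 of the 8 was higher and 2 lower, where 29.2% and 28.7% of all genes were called. Between C185Gneo and WT 0 of the 8 were called by limma, with 3 at an unadjusted p under 0.05 and a smallest adjusted p of 0.21.

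**Figure D3:**
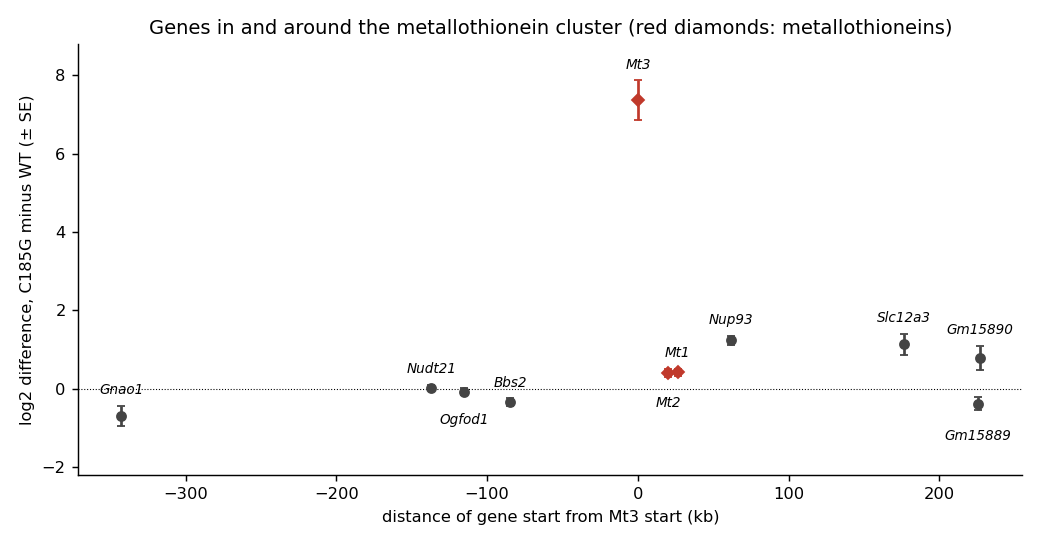
Log2 difference of C185G minus WT with its SE (vertical axis) for 11 genes in and around the metallothionein cluster, by distance of their starts from that of Mt3 in kb (horizontal axis). Mt3 stands at 7.37, Mt2 and Mt1 at 0.39 and 0.42, and the 8 other genes between -0.69 and 1.23.

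Transcripts of the sensor differed little. Mtf1 (ENSMUSG00000028890, chr4:124802104-124849800), which encodes the zinc-sensing activator of the metallothioneins, had 55.6, 44.0, 45.4 and 47.7 CPM in C185G, 42.2, 40.0, 47.7 and 46.1 CPM in C185Gneo and 40.9, 44.2, 48.0 and 49.0 CPM in WT. All 3 groups overlapped. Its log2 difference was 0.08 (SE 0.086) for C185G minus WT, 0.13 (SE 0.086) for C185G minus C185Gneo and -0.05 (SE 0.086) for C185Gneo minus WT. Most of the first value came from C185G 1, without which it was 0.01. Mtf1 shares exon bases with 1110065P20Rik on the other strand, which averaged 9.49 CPM in C185G, 9.94 CPM in C185Gneo and 9.53 CPM in WT. Mtf2, which despite its name is a Polycomb accessory protein, rose by 0.23 (SE 0.061, adjusted p = 0.0052, limma) in C185G against WT, and its exons overlap those of Tmed5.

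The exporters differed in small steps. Slc30a1 (ENSMUSG00000037434, chr1:191906767-191913247) encodes ZnT1, the exporter of the plasma membrane and a target of MTF1. It had 51.4, 49.2, 44.4 and 46.3 CPM in C185G, 45.0, 50.1, 43.7 and 45.3 CPM in C185Gneo and 57.2, 54.9, 50.5 and 52.7 CPM in WT. WT was the highest group: it lay wholly above C185Gneo and overlapped C185G in 1 library of each. The log2 difference was -0.17 (SE 0.065) for C185G minus WT, 0.05 (SE 0.065) for C185G minus C185Gneo and -0.23 (SE 0.065) for C185Gneo minus WT. Thus Slc30a1 was not higher in C185G than in WT, in contrast to Mt1 and Mt2. Its exons overlap an antisense gene, 1700034H15Rik, at 1.43 CPM in C185G, 1.26 CPM in C185Gneo and 1.37 CPM in WT.

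Slc30a5 (ENSMUSG00000021629, chr13:100802648-100833427) encodes ZnT5, which loads zinc into the early secretory pathway. It had 48.1, 54.0, 51.9 and 49.7 CPM in C185G, 66.3, 59.6, 59.4 and 60.1 CPM in C185Gneo and 54.8, 57.7, 56.2 and 55.7 CPM in WT. The 3 groups did not overlap and ran in the order C185G, WT, C185Gneo, low to high. The log2 difference was -0.14 (SE 0.055) for C185G minus WT, -0.27 (SE 0.055) for C185G minus C185Gneo and 0.13 (SE 0.055) for C185Gneo minus WT. When libraries were scaled to their totals the first of these was -0.06, and that scaling moves the median of all genes by 0.080.

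The importers ran in opposite directions. Slc39a8 (ENSMUSG00000053897, chr3:135825279-135888572) encodes ZIP8, a transporter of zinc, manganese, iron and cadmium. It had 204.5, 360.5, 324.1 and 344.4 CPM in C185G, 439.8, 416.0, 376.7 and 406.3 CPM in C185Gneo and 519.6, 493.5, 426.3 and 389.4 CPM in WT. All C185G libraries were below all control libraries, with C185G 1 far under the other 3, and the control groups overlapped. The log2 difference was -0.59 (SE 0.16) for C185G minus WT, -0.44 (SE 0.16) for C185G minus C185Gneo and -0.15 (SE 0.16) for C185Gneo minus WT. Without C185G 1 it was -0.41 and -0.26 for the first and second of these. Per kilobase of transcript, Slc39a8 was the highest of the 5 genes that are not metallothioneins, at 96.3 ± 22.1 in C185G, 128 ± 8.16 in C185Gneo and 143 ± 18.7 CPM per kilobase in WT.

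Slc39a1 (ENSMUSG00000052310, chr3:90248172-90253612), which encodes the widely expressed plasma membrane importer ZIP1, had 91.7, 103.0, 102.0 and 105.0 CPM in C185G, 96.5, 94.6, 87.5 and 90.3 CPM in C185Gneo and 88.6, 86.1, 86.9 and 77.5 CPM in WT. C185G lay above WT in every library and overlapped C185Gneo through C185G 1. The log2 difference was 0.24 (SE 0.060) for C185G minus WT, 0.12 (SE 0.060) for C185G minus C185Gneo and 0.12 (SE 0.060) for C185Gneo minus WT.

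Of the 8 genes, 6 did not overlap between C185G and WT (4 higher, 2 lower), 5 between C185G and C185Gneo (3 higher, 2 lower) and 2 between C185Gneo and WT (1 higher, 1 lower). The shares over all genes were 48.7%, 49.9% and 6.86%, and because the 8 were chosen on these values nothing is read from the comparison. Their median log2 difference was 0.16, 0.13 and -0.10 in these comparisons, against medians of all genes within 0.004 of 0.

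The remaining zinc transporters, which give the wider setting, changed in both directions. Of 21 other zinc exporters and importers listed, 16 were measured; Slc30a3, Slc30a8, Slc39a2, Slc39a5 and Slc39a12 had no value. In C185G against WT 4 rose and 4 fell, and in C185G against C185Gneo 6 rose and 6 fell, by limma's adjusted p over all genes. The median log2 difference of the 16 was -0.03 in both comparisons. The shares called over all genes, higher and lower together, were 55.0% and 57.8%. The list was drawn up with earlier results of these data known.

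Among exporters, 1 rose and 3 fell in each C185G comparison. Slc30a4, the exporter that rose, whose product ZnT4 fills vesicles with zinc, averaged 94.6 ± 14.5 CPM in C185G, 31.6 ± 1.68 CPM in C185Gneo and 32.5 ± 1.72 CPM in WT (SD, n = 4 each), a log2 difference of 1.53 (SE 0.093, adjusted p = 2.0e-08) from WT and 1.57 (SE 0.093, adjusted p = 1.2e-08) from C185Gneo. Its exons overlap 4930417H01Rik on the other strand, which had no value. Slc30a7, for a Golgi exporter, averaged 53.2 ± 2.26 CPM in C185G, 72.8 ± 3.84 CPM in C185Gneo and 72.3 ± 4.18 CPM in WT, and fell by 0.44 (SE 0.058) against WT. Tmem163, which encodes a zinc efflux protein of vesicles and the plasma membrane, averaged 78.6 ± 6.27 CPM in C185G, 131 ± 13.2 CPM in C185Gneo and 123 ± 12.01 CPM in WT, and fell by 0.65 (SE 0.086) against WT. The exons of Tmem163 overlap those of Mgat5, whose own log2 difference was 0.01. Slc30a10, a manganese and zinc exporter, fell by 1.58 (SE 0.33, adjusted p = 0.0012, limma), but rested on 4 to 23 reads per library. Slc30a2, Slc30a6 and Slc30a9 were not called in any comparison.

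Among importers, 3 rose and 1 fell in C185G against WT. Slc39a11, which encodes the Golgi transporter ZIP11, averaged 35.7 ± 2.80 CPM in C185G, 23.8 ± 2.50 CPM in C185Gneo and 21.6 ± 1.56 CPM in WT, and rose by 0.72 (SE 0.089) against WT. The closely related plasma membrane importers Slc39a6 and Slc39a10 rose by 0.54 (SE 0.094) and 0.51 (SE 0.074). Slc39a3, for another plasma membrane importer, averaged 21.0 ± 2.83 CPM in C185G, 29.2 ± 2.16 CPM in C185Gneo and 29.6 ± 1.96 CPM in WT, and fell by 0.51 (SE 0.096). The same 4 changed in the same directions against C185Gneo.

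A further 4 importers were called between C185G and C185Gneo and not between C185G and WT; the difference between these comparisons was not tested apart from C185Gneo against WT. Slc39a4, the importer mutated in human acrodermatitis enteropathica, averaged 216 ± 17.1 CPM in C185G, 162 ± 8.27 CPM in C185Gneo and 211 ± 20.9 CPM in WT. It was 0.41 (SE 0.075, adjusted p = 0.00039) higher in C185G than in C185Gneo, 0.03 (SE 0.075, adjusted p = 0.73) apart from WT, and had a log2 difference of -0.38 for C185Gneo minus WT (SE 0.075, adjusted p = 0.045, limma). This was the only call of the 16 between C185Gneo and WT, where 0.249% of all genes were called higher and 0.292% lower. It was lost without any of 9 of the 12 libraries. Slc39a14, for the zinc, iron and manganese importer ZIP14, averaged 14.6 ± 2.04 CPM in C185G, 10.2 ± 1.31 CPM in C185Gneo and 12.8 ± 0.768 CPM in WT, and rose by 0.52 (SE 0.12, adjusted p = 0.0019) against C185Gneo. Slc39a7, the ER zinc release channel, averaged 8.56 ± 0.533 CPM in C185G, 11.3 ± 1.22 CPM in C185Gneo and 9.54 ± 1.26 CPM in WT, and fell by 0.40 (SE 0.11, adjusted p = 0.0085) against C185Gneo. Slc39a13, a Golgi importer, had a log2 difference of -0.26 (SE 0.11, adjusted p = 0.049, limma) from C185Gneo. That call was lost in 10 of the 12 fits that left out a library, and the gene's exons overlap those of the proteasome gene Psmc3, which was 1.51 higher in C185G than in WT.

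**Figure D4:**
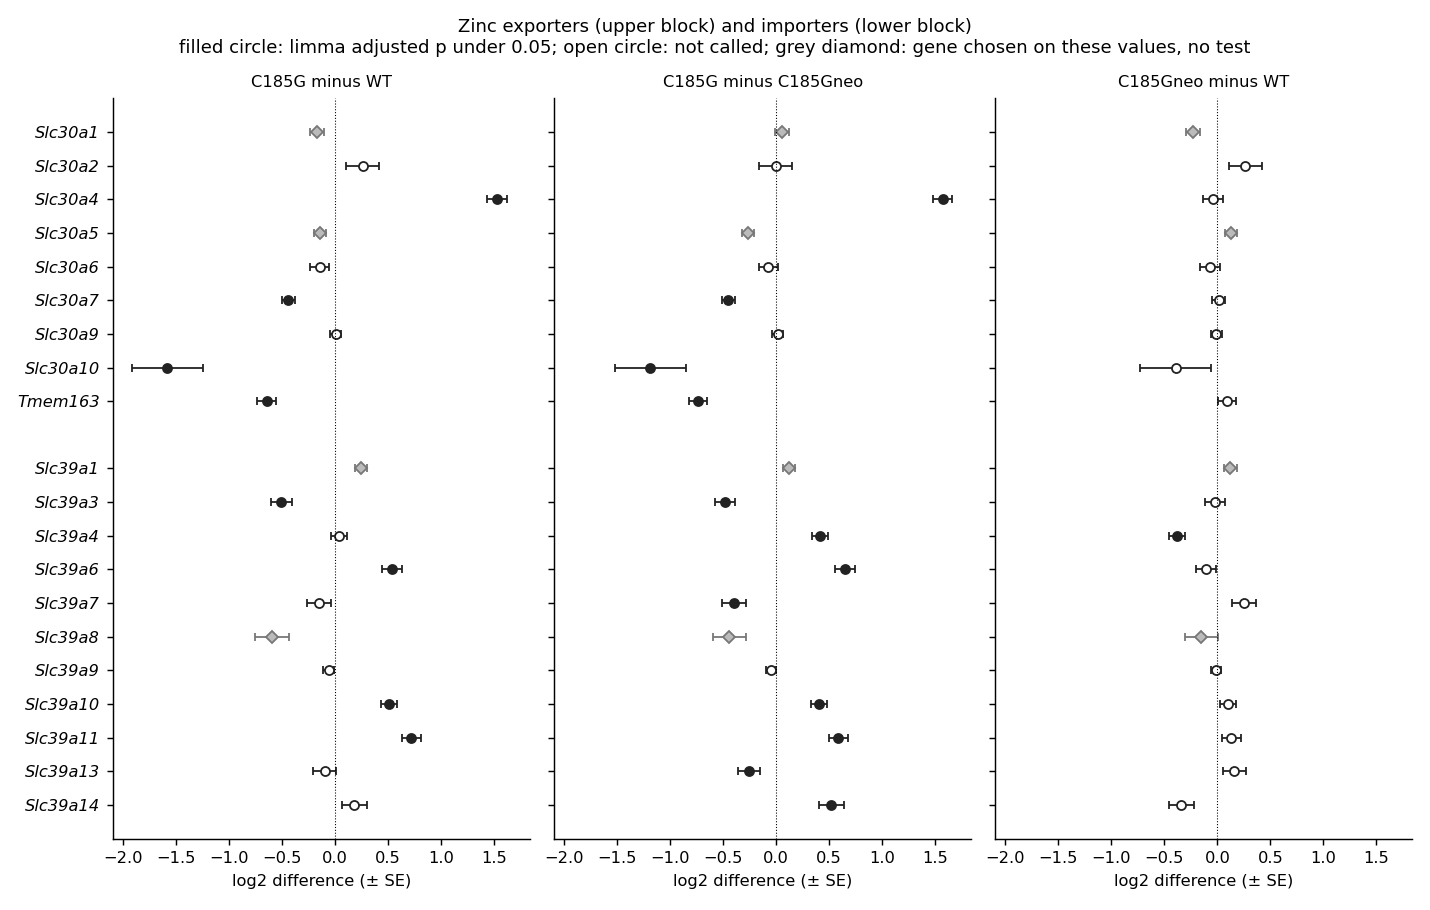
Log2 difference with its SE (horizontal axes) of each measured zinc exporter and importer for C185G minus WT, C185G minus C185Gneo and C185Gneo minus WT, left to right. Filled circles passed limma's adjusted p of 0.05; grey diamonds are the genes chosen on these values and not tested. Slc30a4 lies at 1.53 and Slc30a10 at -1.58 in the first panel, and the third panel is close to 0 for most genes.

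A list of 6 further MTF1 targets held the importer Slc39a10, already counted above, and 5 other genes. In C185G against WT 3 of the 6 rose and 1 fell, and against C185Gneo 4 rose and 1 fell. Over all genes 27.3% rose and 27.8% fell against WT, and 29.2% rose and 28.7% fell against C185Gneo, and the counts of this list and of the next 3 are given beside these shares as a description. Ndrg1, a stress-responsive gene, averaged 250 ± 19.6 CPM in C185G, 50.6 ± 10.7 CPM in C185Gneo and 66.0 ± 9.14 CPM in WT, and rose by 1.93 (SE 0.14) against WT. Gclc, the catalytic subunit of glutathione synthesis, rose by 1.01 (SE 0.13). The third was Slc39a10, given above, which MTF1 is known to repress. Csrp1, a cytoskeletal LIM protein, fell by 0.27 (SE 0.062). The median log2 difference of the 6 was 0.26 from WT and 0.52 from C185Gneo.

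Copper handling genes were listed because metallothioneins also bind copper. Of 11 measured, 4 rose and 2 fell in each C185G comparison, where 55.0% of all genes were called against WT and 57.8% against C185Gneo. Slc31a1, the high-affinity copper importer, averaged 119 ± 1.21 CPM in C185G, 278 ± 10.97 CPM in C185Gneo and 251 ± 14.8 CPM in WT. It fell by 1.07 (SE 0.050, adjusted p = 2.1e-09, limma) against WT. Atp7b, a copper-exporting ATPase, fell by 0.71 (SE 0.13). The copper chaperone Atox1 rose by 0.49 (SE 0.084), and Sod1, the copper-zinc superoxide dismutase, rose by 0.52 (SE 0.050), with 456 ± 26.2 CPM in C185G, 321 ± 8.27 CPM in C185Gneo and 317 ± 8.57 CPM in WT.

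Of 15 iron handling genes, 6 rose and 4 fell against WT, and 6 rose and 3 fell against C185Gneo, beside the same 55.0% and 57.8% of all genes called. Fth1, the ferritin heavy chain whose pattern lay near that of Mt1, averaged 1533 ± 169 CPM in C185G, 1084 ± 89.6 CPM in C185Gneo and 1116 ± 8.65 CPM in WT, and rose by 0.45 (SE 0.078). Hmox1, the haem oxygenase that frees iron, averaged 525 ± 30.4 CPM in C185G, 249 ± 38.1 CPM in C185Gneo and 310 ± 30.04 CPM in WT, and rose by 0.76 (SE 0.096). Tfrc, the transferrin receptor, fell by 1.02 (SE 0.15), and Trf, transferrin, by 1.09 (SE 0.11).

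Glucocorticoid-responsive genes were listed because glucocorticoids also raise Mt1 and Mt2. Of 9 measured, 1 rose and 5 fell in each C185G comparison, beside 27.3% and 27.8% of all genes rising and falling against WT and 29.2% and 28.7% against C185Gneo. The median log2 difference of the list from WT was -0.34. The list was not limited to genes that glucocorticoids raise. It also held Nr3c1, the gene of the glucocorticoid receptor, which was 1 of the 5 that fell, by 0.39 (SE 0.088) against WT. Klf9, Tsc22d3 and Sgk1 fell by 0.75 (SE 0.069), 0.70 (SE 0.15) and 0.34 (SE 0.073). Fkbp5, a co-chaperone of the glucocorticoid receptor, rose by 2.49 (SE 0.32, adjusted p = 6.0e-05, limma). It averaged 83.3 ± 33.9 CPM in C185G, 13.9 ± 2.61 CPM in C185Gneo and 13.8 ± 2.69 CPM in WT. The library C185G 1 had 35.8 CPM of it, against 88.0 to 115.9 CPM in the others of its group. Between C185Gneo and WT, limma called 0 genes of the MTF1, copper, iron and glucocorticoid lists, where 3, 2, 4 and 1 had an unadjusted p under 0.05 and 0.541% of all genes were called.

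**Figure D5:**
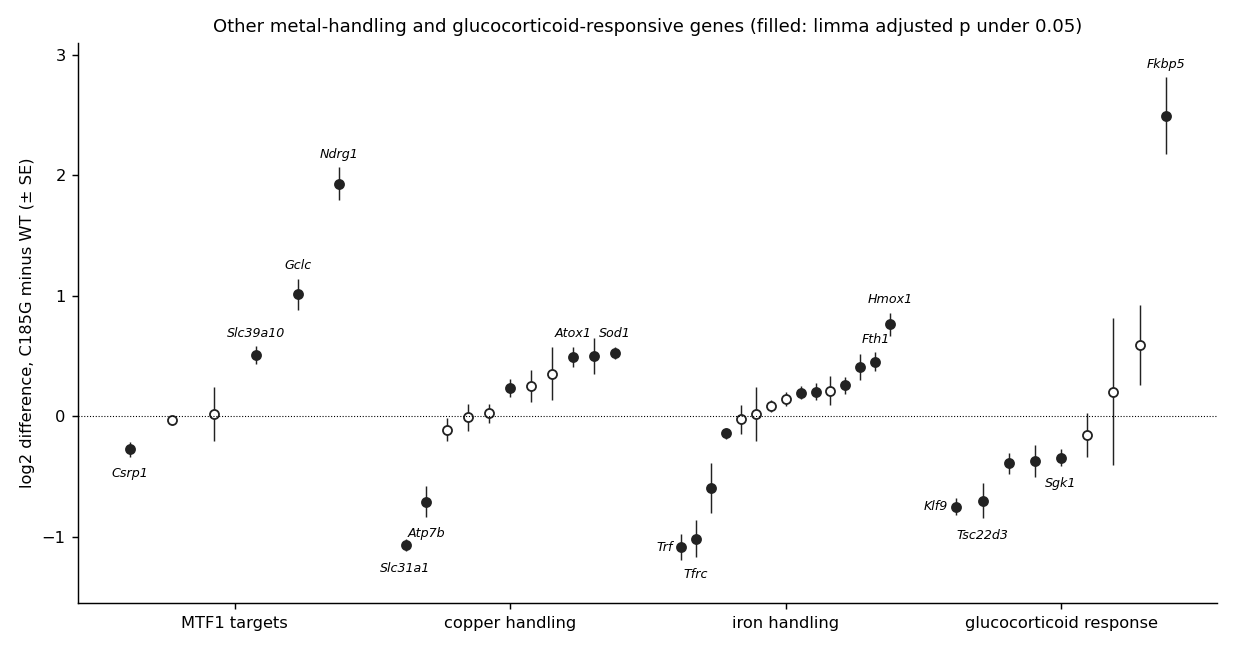
Log2 difference of C185G minus WT with its SE (vertical axis) for the measured genes of 4 lists, sorted within each list; filled points passed limma's adjusted p of 0.05. Each list holds genes on both sides of 0, from Trf at -1.09 to Fkbp5 at 2.49.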

How the data were processed

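RNA of AEC2 from 12 libraries, 4 per genotype, was analysed from 1 table per library. Per the labels' protocols, lungs were digested with Dispase, and mesenchymal cells (by plastic adherence) and CD45+ cells (by beads) were depleted. STAR, limma and mm10 are listed, per the submitters' processing notes; versions, the read counter, its annotation and strandedness: not given in the sources used here. Deposited values are log2 expression; judged by their spacing, the authors had added 0.5 to whole read counts and applied 1 factor per library. Whole counts were recovered, 100% of them whole within 1e-06, and normalized CPM were computed from them. Depths are given with the results; 1 read was worth up to 0.0616 CPM. No 2 libraries were duplicates.

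All 12 libraries entered 1 fit across all genes in limma 3.58.1 (R 4.3.3; lmFit and eBayes, trend and robust options on), each genotype having its own coefficient. The threshold for a call was 0.05, Benjamini-Hochberg adjusted over all 16080 genes. On simulated data with 200 genes changed by 1 on the log2 scale, the fit recovered 98% to 99.5% of them. The changed genes were drawn from well-counted genes, and all genes were given the same spread beyond counting error. This recovery therefore does not extend to genes of few reads or of larger spread. False calls were 8.41% of calls for C185G against WT, 3.41% for C185G against C185Gneo and 5.24% for C185Gneo against WT. Far more genes were called in the real C185G comparisons, so the simulation does not give their error rate. The members and lists were chosen with earlier results of these data known. Named were the 8 genes, listed zinc genes, Sftpc and the 5 genes nearest in pattern to each metallothionein. Up to 4 genes per other list were named, those with the smallest p against WT. Neighbours of the cluster, 2 neuron markers, Nr3c1 and overlapping genes were added after their values were seen. Some genes are not reported here. Symbols and coordinates came from GENCODE M21 (GRCm38), and 63 identifiers had no symbol. Coding sequences were read from the same annotation and promoter windows from RefSeq (GRCm38.p6), with Biopython. Per kilobase levels use the length of 1 annotated transcript per gene. Alternatives were other scalings, filters, weights, added counts, a replicate block and each library left out in turn.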

Additional observations from a re-analysis of the deposited data

Results flagged for a closer look

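In 9 of 120 groups of 4 libraries, the highest or lowest library lay far from the other 3 (Dixon's test); chance flags about 1 in 20 groups. Mt3 had 0.515 CPM in WT 1, against 0.0557 to 0.123 CPM in the other WT libraries. Slc30a5 had 66.3 CPM in C185Gneo 1, against 59.4 to 60.1 CPM in the others of its group. Slc30a2, an exporter of secretory vesicles, had 3.30 CPM in C185G 1, against 4.74 to 4.85 CPM in the other C185G libraries, and its log2 difference from WT passed the threshold without that library (0.39, limma adjusted p = 0.030). Among WT libraries, WT 4 was the lowest in Slc30a4 at 29.95 CPM (others 33.1 to 33.6), in Tmem163 at 105 CPM (others 129 to 130) and in Slc39a10 at 25.9 CPM (others 30.8 to 31.4). Sod1 was lowest in C185Gneo 1 at 308 CPM (others 323 to 326) and highest in WT 4 at 330 CPM (others 311 to 314). Hmox1 had 355 CPM in WT 1, against 290 to 299 CPM in the other WT libraries.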

How the results depend on the processing

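No log2 difference of the 8 genes changed sign under any alternative run, and 525 of their alternative values moved by less than the spread between replicates; the 3 that moved more came from library totals (Slc30a5 against WT and against C185Gneo, Slc39a1 against WT). With library totals, 59.9% of all calls against WT and 58.1% of those against C185Gneo were upward in C185G, against 49.6% and 50.5% on the authors' scaling. Calls among the 16 other zinc genes were 8 to 9 (C185G against WT), 11 to 12 (C185G against C185Gneo) and 0 to 1 (C185Gneo against WT) with each library left out, and calls over all genes 7932 to 9277, 8414 to 9641 and 40 to 112. The call of Slc39a4 between C185Gneo and WT was lost (0 calls) without both the trend and the robust step, with quantile normalization, library totals, only the 8 libraries compared, quality weights and the replicate block; quality weights gave 162 calls over all genes there. Slc39a13 and Mtf2 lost their calls against C185Gneo in several of these, and so did Csrp1; the cause was not tested. Replicate numbers paired the samples weakly at most, with 12 correlations from -0.126 to 0.182 and 2 over 0.1. In 4 of the 12 same-number pairs the number was the best match. Each match was the best of only 4 libraries, so some would arise by chance. Both correlations over 0.1 were between C185Gneo and WT (0.182 for replicate 1, 0.127 for replicate 4). There the number was the best match for replicates 1, 2 and 4 and not for replicate 3. Whether libraries of these 2 groups were handled together was not tested. With the replicate block, 8670, 9112 and 63 genes were called, and 8, 11 and 0 of the other zinc genes. Depth limits Mt3 in the control groups and Slc30a10.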
